A study of Mus musculus with 2 samples.

Results

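The 2'-5'-oligoadenylate synthetase (OAS) family was described in the nucleoplasmic RNA of mouse macrophages through 8 genes, Oas1a, Oas1b, Oas1c, Oas1g, Oas2, Oas3, Oasl1 and Oasl2, chosen by symbol out of 55536 annotated genes. The other 4 annotated Oas genes are given beside them. The cells were bone marrow-derived macrophages, which are macrophages grown in culture from marrow precursors, of C57BL/6J mice. They had received 100 ng/ml Lipid A, the lipid anchor of bacterial endotoxin and the ligand of Toll-like receptor 4, for 12 h. They were then kept without it for 12 h, and a renewed exposure was stopped at 0 min, so every library came from cells with the same past exposure. Total RNA of the nucleoplasm was depleted of ribosomal RNA and sequenced in 2 libraries, labelled biological replicates 1 and 2 of this 1 group. The labels give separate biosamples but 1 donor entry for both, with age and sex not collected. The library of replicate 1 was made from 1 µg of RNA and that of replicate 2 from 500 ng, so that the starting amount and the replicate cannot be told apart. No untreated or other group was analysed here, so levels and the spread between libraries are described, with no test between conditions.

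OAS proteins sense double-stranded RNA, a sign of viral infection, and most of them then join ATP into short 2'-5'-linked chains called 2-5A. 2-5A is a messenger that leads to the cutting of RNA of host and virus. The genes are a classic part of the interferon response: type I interferon, which macrophages also make after Toll-like receptor 4 is engaged, acts through a complex that contains Stat2 and Irf9 on a promoter element called the interferon-stimulated response element (ISRE). Nuclear RNA holds newly made and incompletely spliced transcripts, so a level here is not the level of the finished cytoplasmic mRNA.

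The sum of expected counts over annotated genes was 22907877 for replicate 1 and 18612405 for replicate 2. All 7 macrophage markers examined were at 1 TPM or more in both libraries, with means from 58.9 TPM (Itgam) to 1247 TPM (Lyz2). Among the 25 genes that mark other cell types, 22 were under 1 TPM in both libraries, and Ly6g, Cd3e and Mcpt4 had no count in either. The 2 at 1 TPM or more in both were Ccr9 and Tcf4, the latter at 47.8 and 39.9 TPM. Both belong to a list of 3 plasmacytoid dendritic cell markers, whose remaining gene, Siglech, was at 0.21 and 0.19 TPM. The summed level of the 25 genes was 52.7 TPM in replicate 1 and 45.1 TPM in replicate 2, and its part in the OAS levels was not tested.

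All 8 genes were expressed. Each had at least 1 TPM in both libraries and 7 of the 8, all except Oas1c, had at least 10 TPM in both. Among all 22028 protein-coding genes, 44.4% reached 1 TPM in both libraries and 19.7% reached 10 TPM. TPM is a read count divided by transcript length, scaled to a fixed total per library. The median over the 8 genes was 111 ± 27.6 TPM (SD, n = 2), where the median protein-coding gene had 0.432 ± 0.0177 TPM. Together the 8 genes held 1158 TPM in replicate 1 and 966 in the other library. The Oasl genes took 48.9% ± 1.70 of this sum, Oas2 and Oas3 30.8% ± 1.73, and the 4 Oas1 genes 20.3% ± 3.43 (SD, n = 2).

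The synthetases with more than 1 OAS unit came out at similar levels in both libraries. Oas2 (ENSMUSG00000032690.16), whose protein carries a pair of OAS units, was at 200.02 TPM in replicate 1 and 183 in replicate 2. Oas3 (ENSMUSG00000032661.9), which carries a further unit and prefers long double-stranded RNA, was at 143 and 126 TPM. In each library Oas2 was the higher of the pair, by 1.40-fold and 1.45-fold. Their expected counts, 20172 and 15592 for Oas2 and 15909 and 12878 for Oas3, were among the deepest of the family.

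The Oasl genes encode proteins with an OAS fold followed by ubiquitin-like domains. Oasl2 (ENSMUSG00000029561.17), which makes 2-5A in the mouse, was the highest family member at 428 and 397 TPM, a mean of 412 ± 22.2 TPM (SD, n = 2). Among protein-coding genes this placed it at rank 53 in replicate 1 and rank 48 in replicate 2. Oasl1 (ENSMUSG00000041827.15), which lacks synthetase activity and is known to restrain translation of the Irf7 mRNA, was at 124 and 87.15 TPM. Oasl2 stood 3.45-fold above Oasl1 in replicate 1 and 4.55-fold in replicate 2, and their ranges did not overlap.

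The Oas1 genes spread over a wide range. Oas1g (ENSMUSG00000066861.14) and Oas1a (ENSMUSG00000052776.10), the members of this group known as active synthetases, were at 137 and 95.2 TPM and at 83.7 and 54.2 TPM. Oas1b (ENSMUSG00000029605.16), the gene behind inherited resistance to flaviviruses, was at 37.5 and 18.9 TPM. Oas1c (ENSMUSG00000001166.17), which is not known to make 2-5A, was lowest at 5.65 and 4.58 TPM, from 304 and 186 expected counts. In all 4 the higher value was that of replicate 1.

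**Figure D1:**
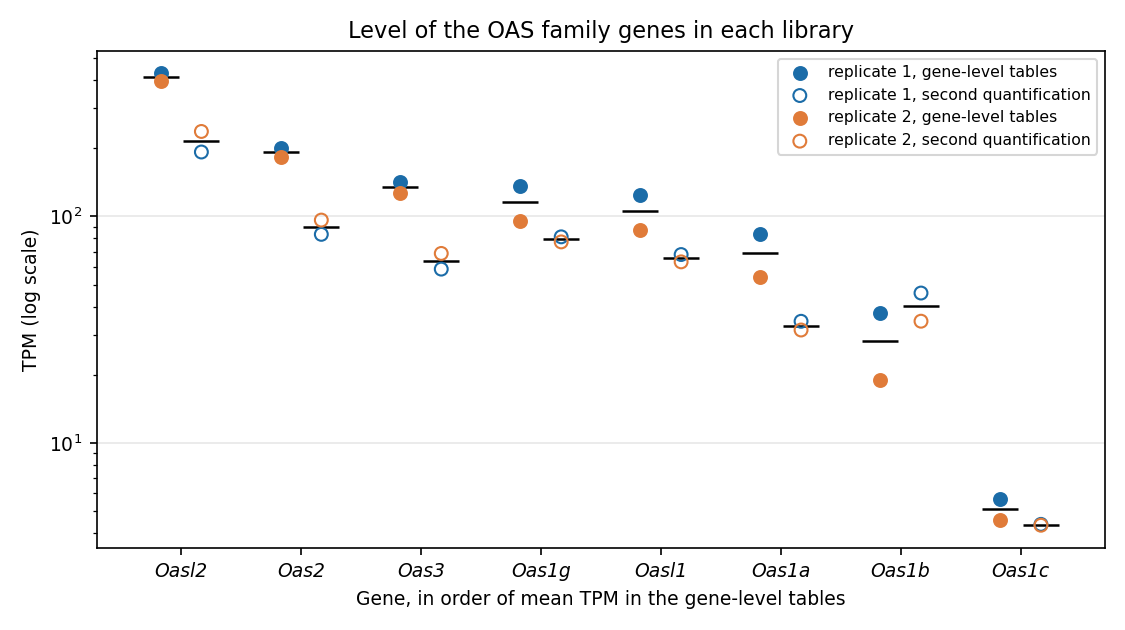
Level of each OAS family gene (vertical axis, TPM on a log scale) in the 2 libraries, with filled points for the gene-level tables, open points for the second quantification and bars for the mean of 2 libraries. Oasl2 is highest and Oas1c lowest by both, Oas3 and Oas1g overlap in the gene-level tables, and Oas1b is the only gene whose mean is higher by the second quantification.

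By mean TPM the order was Oasl2, Oas2, Oas3, Oas1g, Oasl1, Oas1a, Oas1b and Oas1c. Neighbours in this order did not overlap between libraries, except that Oas1g overlapped both Oas3 above it and Oasl1 below it. A separate deposited quantification of the same reads, called the second quantification here, kept Oasl2 first, Oas2 next and Oas1c last. There Oas1g (81.3 and 77.2 TPM) lay above Oas3 (58.6 and 68.7 TPM) without overlap, and Oasl1 (67.9 and 63.0 TPM) overlapped Oas3. The places of Oas1a and Oas1b were exchanged, with ranges that nearly touched: Oas1a had 34.5 and 31.5 TPM and Oas1b 45.9 and 34.5 TPM. Of the Oas1b level there, 32.1 and 22.3 TPM were assigned to the short transcript Oas1b-202. Its split from the other Oas1b transcripts is uncertain, and so is this exchange. Mean TPM was lower there for 7 of the 8 members, with family sums of 568 and 613 TPM, so levels are compared within 1 set of tables only.

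The genes lie in 2 clusters on mouse chromosome 5 (mm10). Oasl2 (114896936 to 114912234) and Oasl1 (114923240 to 114937915) form a stretch of 40980 bases, both on the plus strand. The other members sit within 191320 bases that hold 10 Oas genes from Oas2 (120730333 to 120749853) to Oas1d (120914536 to 120921652). Within this stretch Oas3 spans 120753098 to 120777661, Oas1c 120800194 to 120812514, Oas1b 120812635 to 120824163, Oas1g 120876142 to 120887613 and Oas1a 120896256 to 120907521.

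Levels changed sharply from gene to gene along the larger cluster. Oas1d, known from oocytes, had 0 counts in both libraries, where a count of 0 allows up to 3 counts. Oas1e had 3 and 2 counts and Oas1f 2 and 0 counts, at or under that limit. Oas1h, between Oas1f and Oas1g, had 68 and 62 counts, or 1.59 and 1.70 TPM. The second quantification gave it 267 and 274 counts, or 2.16 and 2.73 TPM. The nearest protein-coding genes outside the clusters were also low. Dtx1 and Rph3a, beside the larger cluster, were at no more than 0.02 TPM in either library, although the second quantification gave Dtx1 0.640 and 0.998 TPM. Beside the Oasl cluster 4930519G04Rik had 0 and 0.07 TPM and 2210016L21Rik 3.45 and 3.41 TPM.

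**Figure D2:**
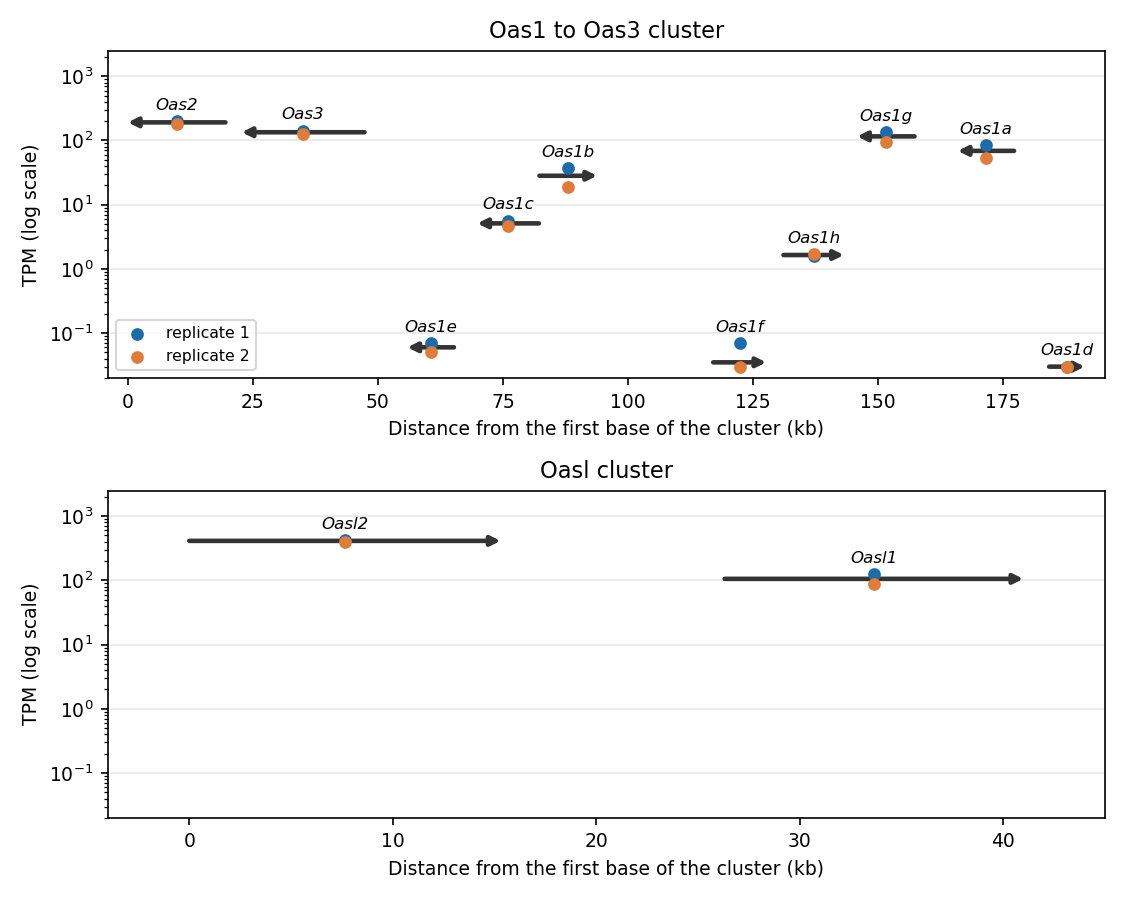
Level (TPM, log scale) of the 12 annotated Oas genes against their place in the 2 clusters (kb from the first base of each), with arrows for the extent and strand of each gene at its mean and points for the 2 libraries. Values under 0.03 TPM are drawn at 0.03. Oas2, Oas3, Oas1g and Oas1a lie above 50 TPM while Oas1d, Oas1e and Oas1f, in the same cluster, lie under 0.1 TPM.

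Oas1c and Oas1b start 120 bases apart and run in opposite directions. Oas1b was 6.64-fold above Oas1c in replicate 1 and 4.13-fold in replicate 2, and 10.5-fold and 7.95-fold in the second quantification. The antisense gene Gm43069 overlaps 5430 bases of Oas1c and had 11.2 and 3.04 counts. Gm43068 overlaps 1273 bases of Oas2 on the other strand with 352 and 256 counts, and Gm13822 overlaps 38 bases of Oasl1 with 37 and 18 counts. The use of strand in counting is not given in the sources used here, so reads from these overlaps could belong to either gene.

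The Oas1 genes resemble each other in sequence, which limits how well reads can be assigned to them. Over their coding frames Oas1a and Oas1g were 96.7% identical (1068 of 1104 bases), the closest pair among the 12 genes, and the next, Oas1d and Oas1e, were 90.8% identical. Of all stretches of 31 bases in Oas1a transcripts, 68.8% also occurred in another annotated gene, nearly all of them in Oas1g, and for Oas1g the share was 55.1%. At 100 bases the shares were 40.9% and 31.2%. No stretch of 31 bases of Oas2 was shared with any other gene, and in Oas1b the share was 6.70%. The deposited posterior SD of the counts of Oas1a and Oas1g was 21.8 in replicate 1 and 17.0 in replicate 2, small beside 4010 and 2218 counts of Oas1a, but the split between the pair depends on how the shared reads were divided. Oas1g was above Oas1a by 1.63-fold and 1.76-fold in the gene-level tables and by 2.36-fold and 2.45-fold in the second quantification. Values of this pair are therefore uncertain.

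Oas1b is annotated as a polymorphic pseudogene, because the C57BL/6J reference carries a stop inside its coding frame while some other strains do not. The frame of its reference transcript Oas1b-203 opens with ATG and has 377 codons, of which codon 253 is a stop, followed by 124 more. The bases around this codon are shown with the aligned bases of Oas1a, Oas1g and Oas1c. In the reference the stop distinguishes Oas1b from these neighbours. Reads of these macrophages were not examined at this codon. Capitals mark codon 253 of Oas1b (window chr5:120821296-120821322, plus strand), codon 258 of Oas1a (chr5:120899177-120899203, minus strand) and of Oas1g (chr5:120879204-120879230, minus strand), and codon 263 of Oas1c (chr5:120802926-120802952, minus strand), each 5′ to 3′ in mm10.
Oas1b: gcccagggcttcTGAaccgtcttggaa
Oas1a: gcccagggcttcCGGaccgtcttggaa
Oas1g: gcccagggcttcCGGaccgtcttggaa
Oas1c: gccaagaacttcCGGaccttcttagaa
Of these 4, the capitals spell a stop in Oas1b alone, and the frames of the other 3 run on to a final stop at codon 368 in Oas1a and Oas1g and codon 363 in Oas1c. Despite its stop the Oas1b-203 transcript was present, at 25.0 and 15.9 TPM, or 1165 and 633 expected counts. Only 48 of its 1807 stretches of 31 bases occur in no other Oas1b transcript, so its split from them is uncertain. The processed transcript Oas1b-202, which keeps 152 bases of intron 1, had 12.5 and 3.02 TPM, and the transcript annotated as coding, Oas1b-201, was listed at 0 in both libraries with a posterior SD of 9.63 and 11.2 counts. The split differed between tables: Oas1b-203 held 75.4% ± 12.2 of the gene's TPM in the gene-level program and 32.7% ± 3.78 in the second quantification (SD, n = 2).

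Promoter windows from 250 bases before to 50 bases after the start were taken from RefSeq (GRCm38.p6) for 6 of the 8 members, with Oas1b and Oas2 not matched. They were searched on both strands for an ISRE core, GAAANNGAAA, and for the shorter interferon regulatory factor (IRF) motif AANNGAAA, which every ISRE core match contains. Among all 32851 windows of this length, 3.44% held the ISRE core and 23.9% held the IRF motif. The windows of Oas1a, Oas1g, Oas1c and Oas3 held the core. The matches are shown because the same letters recur beside genes of very different level; capitals mark the matched bases, 5′ to 3′ in the direction of the motif.
Oas1a: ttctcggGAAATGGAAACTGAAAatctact
Oas1g: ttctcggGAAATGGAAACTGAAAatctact
Oas1c: ttcccggGAAATGGAAACTGAAAgtcccat
Oas3: gggaggaGAAAACGAAAgtgaagg
In Oas1a (chr5:120907523-120907552, minus strand) and Oas1g (chr5:120887609-120887638, minus strand) the capitals are 2 overlapping core matches, 20 to 5 and 18 to 3 bases before the RefSeq start, and all 30 bases shown are equal. The window of Oas1c holds the same 16 matched bases on the strand opposite to the gene, 114 to 99 bases before its start (chr5:120812606-120812635, plus strand). That match points at Oas1b and ends 7 bases before the annotated Oas1b start, and 25 of its 30 bases equal those of Oas1a. Oas3 has 1 match 75 to 66 bases before its start (chr5:120777718-120777741, minus strand). The windows of Oasl1 and Oasl2 held no ISRE core, with 3 and 0 IRF motif matches, although Oasl2 had the highest level of the family. The Oasl2 window ends at 114896983 and includes the annotated start of the coding transcript Oasl2-201 (114896936). Oasl2-205, the transcript with most TPM, is annotated from 114897742, outside the window. Its annotated frame of 169 bases is not a whole number of codons and opens at the first base of the transcript. Its model may therefore be incomplete at the 5′ end, and whether transcription starts there was not tested. Windows of Oas1f and Oas1h, at 1.70 TPM or less in the gene-level tables, held no core and 1 IRF motif each. A match is a description of letters in this window and no binding was measured.

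The transcript types of the family differed more between genes than between libraries. Most TPM of Oas2 (93.7% ± 2.89), Oas3 (91.9% ± 1.86), and all of Oas1a and Oas1c, was assigned to protein-coding transcripts (SD, n = 2). Oas1a has a single annotated transcript, so no other outcome was possible there. By contrast 91.6% ± 1.51 of the TPM of Oasl2 and 85.7% ± 3.99 of that of Oas1g went to transcripts annotated as retained introns or as targets of nonsense-mediated decay, the pathway that removes mRNAs with an early stop. Oasl1 lay between, at 34.6% ± 7.23. Over 8064 protein-coding genes with at least 1 TPM and at least 1 annotated transcript of another type, the median share outside protein-coding transcripts was 33.97% ± 0.916. Of these genes 23.9% had a share over 50% in both libraries, as did 2 of the 6 members among them, Oasl2 and Oas1g. In the second quantification Oasl1 (55.0% ± 5.13) also passed this level and the median gene stood at 49.4%.

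**Figure D3:**
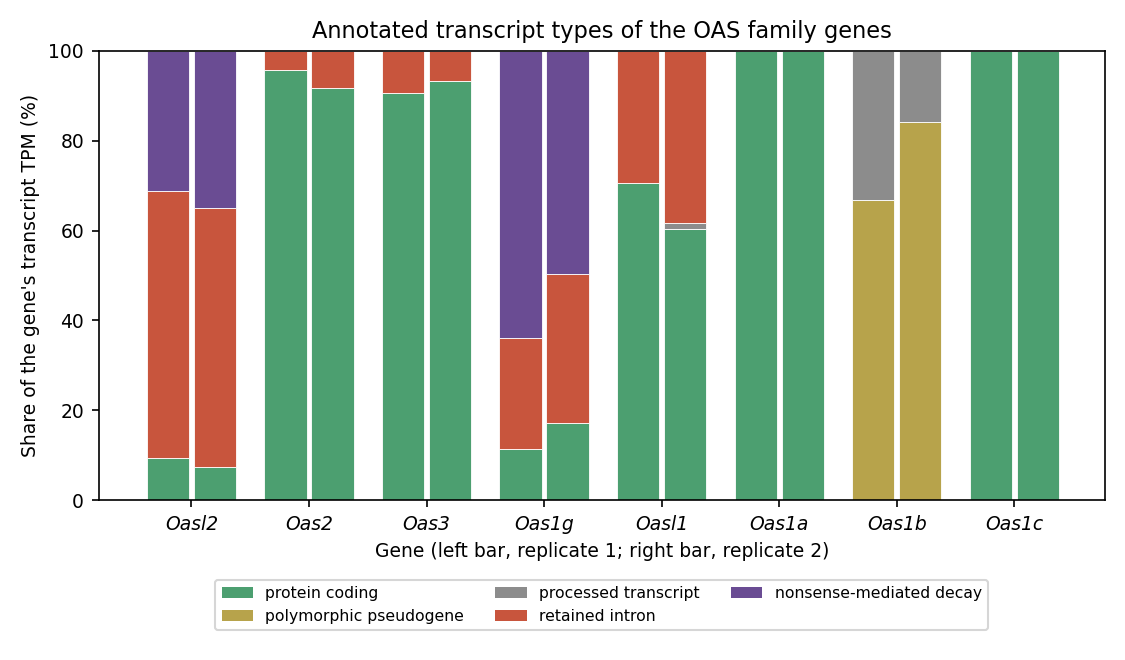
Share of each gene's transcript TPM (vertical axis, %) by annotated transcript type, with the left bar for replicate 1 and the right bar for replicate 2. Oas2, Oas3, Oas1a and Oas1c are mostly protein coding, Oasl2 and Oas1g are mostly retained intron and nonsense-mediated decay, and both bars of a gene have the same leading type, while its share shifts most in Oas1b (66.7% and 84.0%) and Oas1g (63.8% and 49.8%).

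For Oasl2 the largest pieces were Oasl2-205, annotated for nonsense-mediated decay, at 134 and 139 TPM, and Oasl2-208, a retained-intron transcript, at 99.7 and 109 TPM. Oasl2-208 is a single block of 2108 bases that lies wholly inside intron 3 of the coding transcript Oasl2-201, an intron of 3416 bases. Of its stretches of 31 bases 96.4% occur in no other Oasl2 transcript. It took 5424 and 5037 counts, 29.9% and 34.3% of the gene's expected counts, with a posterior SD of 0. Oasl2-203 and Oasl2-204 keep 402 bases of intron 3 and 253 bases of intron 2 and held 11.9% and 15.9% of the TPM. Their own stretches were fewer, 58.8% in Oasl2-203 and 31.5% in Oasl2-204, so only the reads of Oasl2-208 were well set apart from those of the spliced exons. Oasl2-205 rests on less: it leaves out exon 2 (289 bases), its annotated frame ends in TGA with 3 exon junctions still to come, and only 28 of its 1990 stretches are found in no other Oasl2 transcript. The protein-coding transcripts of Oasl2 together held 40.4 and 29.0 TPM.

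In Oas1g the transcript with most TPM was Oas1g-203, annotated for nonsense-mediated decay, at 87.1 and 47.4 TPM. It includes 61 bases of intron 3, and its frame of 234 codons ends in TAG, 427 bases before the last exon junction, where the coding transcript Oas1g-201 has 367 codons before its stop. Of its 1459 stretches 119 are its own within the gene. Oas1g-202 is a retained-intron transcript that keeps 271 bases of the same intron, at 33.7 and 31.5 TPM. The coding Oas1g-201 held 15.7 and 16.3 TPM, close in both libraries, and the higher Oas1g level of replicate 1 was mostly assigned to Oas1g-203. In the second quantification Oas1g-201 had 6.19 and 10.2 TPM and Oas1g-203 40.4 and 28.7 TPM. The split between these transcripts is therefore uncertain. The protein-coding transcripts of Oasl1, led by Oasl1-202, summed to 87.4 and 52.6 TPM, while the retained-intron Oasl1-204 of that gene, with 403 bases of intron 4, had 36.3 and 33.5 TPM. Introns with no annotated retained transcript are not in these tables, so the full amount of unspliced RNA was not measured.

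Counting protein-coding transcripts alone changed the order of the family to Oas2, Oas3, Oasl1, Oas1a, Oasl2, Oas1g, Oas1c and Oas1b. Oasl1 and Oas1a were not apart: Oasl1 had 87.4 and 52.6 TPM of coding transcripts and Oas1a 83.7 and 54.2 TPM, and in the second quantification Oas1a was the higher in both libraries. Oas1b is last at 0 because its detected transcripts are typed as polymorphic pseudogene and processed transcript. Over all 8 genes 53.2% ± 1.44 of transcript TPM lay outside protein-coding transcripts. Without Oasl2 this share was 28.6% ± 1.60, and in expected counts in place of TPM which do not correct for transcript length, it was 32.1% ± 1.34 (SD, n = 2).

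Partners of the 2-5A pathway were lower than most members. Abce1, needed for ribosome recycling and known to curb the 2-5A pathway, was at 14.6 and 18.7 TPM. The enzymes that degrade 2-5A were lower, with Akap7 at 6.00 and 11.1 TPM and Pde12 at 2.46 and 2.65 TPM.

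The other genes of the pathway were taken as 2 lists. All 6 genes of double-stranded RNA sensing and editing were at 10 TPM or more in both libraries. The RNA helicase sensor Ddx58 (RIG-I) was at 165 and 126 TPM, Zbp1, a sensor of Z-form nucleic acid, at 141 and 109 TPM, and the kinase Eif2ak2 (PKR) at 93.8 and 76.7 TPM. Adar, the editing enzyme, was at 99.4 and 61.4 TPM, and the sensors Ifih1 (MDA5) and Dhx58 (LGP2) at 81.4 and 65.0 TPM and at 81.9 and 61.6 TPM. All 7 genes of the interferon signal were also at 10 TPM or more in both libraries. The receptor chains Ifnar1 and Ifnar2 had 62.35 and 62.36 TPM and 58.1 and 38.6 TPM, and the kinases Jak1 and Tyk2 31.1 and 25.4 TPM and 65.2 and 50.7 TPM. Among the factors Stat2 was at 295 and 214 TPM, Irf9 at 31.4 and 27.4 TPM and Irf7 at 507 and 255 TPM.

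No member differed by a log2 ratio of 1 or more between the libraries (0 of 8), a size reached by 2.01% of the 10198 genes whose mean count was 100 or more. Each ratio sets 1 library against 1 other, after TMM scaling of expected counts, and has no test. All 8 members had a ratio below 0 on this scaling, as did 50.8% of the 10198 genes. With library totals in place of TMM, Oasl2 and Oas3 were both at -0.01, and in the TPM of the second quantification Oasl2, Oas2 and Oas3 were higher in replicate 2. No counting interval of Oasl2, Oas3 or Oas2 overlapped that of any other member. The interval of Oas2 also lay apart from those of Oasl2 and Oas3, so the intervals do not define groups. The split used here was read from these same ratios. Oasl2 (-0.05), Oas3 (-0.05) and Oas2 (-0.12) were nearly level, with 95% intervals of -0.08 to -0.02, -0.08 to -0.02 and -0.15 to -0.09. Oas1c (-0.45), Oas1g (-0.53), Oas1a (-0.60), Oasl1 (-0.62) and Oas1b (-0.71) were lower by more, with intervals from -0.72 to -0.19 for Oas1c and from -0.84 to -0.57 for Oas1b. These exact Clopper-Pearson intervals cover counting error only. The SD of the log2 ratio over the 10198 genes was 0.43. In bulk RNA, fewer cells with a transcript and less of it per cell cannot be told apart.

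**Figure D4:**
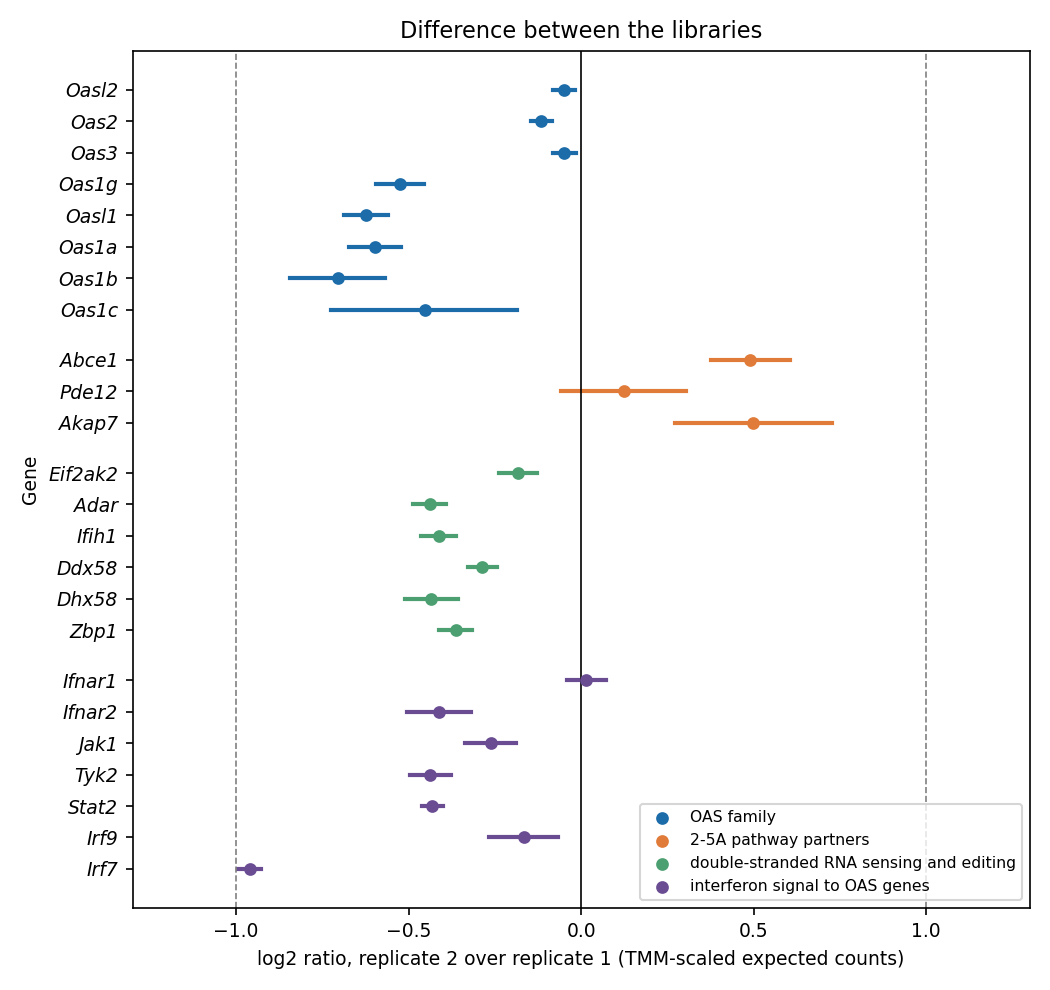
Log2 ratio of replicate 2 over replicate 1 (horizontal axis, TMM-scaled expected counts) for the OAS family and 3 lists of pathway genes, with points for the ratio and bars for the exact 95% counting interval. Dashed lines mark a ratio of 1 either way; no gene lies past them, and Irf7 is nearest at -0.96.

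The direction was shared by most other interferon-linked genes listed and by the macrophage markers, and not by the 2-5A partners. Of the 10198 genes, 50.8% had it. All 6 genes of double-stranded RNA sensing and editing were lower in replicate 2, with log2 ratios from -0.44 (Adar) to -0.18 (Eif2ak2). In the interferon list 6 of 7 were lower, led by Irf7 (-0.96), and Ifnar1 was at 0.02. Pde12 (0.12), Abce1 (0.49) and Akap7 (0.50) were all higher in replicate 2, with an interval that includes 0 for Pde12. The summed macrophage markers were at 3459 TPM in replicate 1 and 2815 in replicate 2. Fcgr1 was at 166 and 67.2 TPM and Csf1r at 256 and 255 TPM. On TMM-scaled counts all 7 macrophage markers were lower in replicate 2. Fcgr1 had 9569 and 3911 expected counts, and Csf1r, level in TPM, had 21568 and 13150. The list of nuclear RNAs was higher in replicate 2 in TPM, at 20367 and 27299.7, mostly Malat1 (19257 and 26338 TPM). On TMM-scaled counts its genes were mixed. Malat1 (2560690 and 1903920 expected counts) and Neat1 were lower in replicate 2, and Xist was higher. The part of these lists in the ratios was not tested, nor was that of the starting amount.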

How the data were processed

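Nucleoplasmic total RNA of 2 libraries of 1 group was analysed. The deposited gene-level and transcript-level tables hold expected counts and TPM, and a further deposited transcript table per library, the second quantification, holds estimated counts with TPM. According to the submitters' deposited notes, the first derive from transcriptome alignments and the latter straight from reads, on mm10 with GENCODE mouse release 21. Programs, versions and strand use are not stated there or in the labels. Entries that name no annotated gene (1.01% and 0.336% of expected counts) were left out of library sizes.

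The members and lists were chosen with earlier results of these data known. The motifs, the 50% level for transcript types, the pairs set side by side, the stretch lengths and the view by protein-coding transcripts were chosen after values were seen. Named genes were the members, the other Oas genes, the listed genes and the nearest protein-coding neighbours. Some listed genes are not reported here. Named transcripts were the highest of each gene and any with at least 10% of its TPM in both libraries. Oas1b-201 and Oasl2-201 fall outside this rule and were named after their values were seen.

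Expected counts were rounded to whole numbers and scaled by TMM (edgeR 4.0.16, R 4.3.3) with a prior count of 0.5. DESeq2 1.42.0 size factors and library totals were alternatives. Ratios of the second quantification were centred on their median over genes whose mean count was 100 or more, a shift of 0.05, in place of TMM. No p-value was computed, since there is 1 group of 2. The ratio step was tested on simulated data with planted changes larger than the log2 threshold of 1. That checks the calculation only and does not bear on ratios as small as those of the members. Coding frames were aligned with Biopython 1.88, and stretches of 31 and 100 bases were compared over all GENCODE transcripts on both strands. Python 3.11.15 was used. The files show no molecular identifiers, so intervals and limits cover counting error only.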

Additional observations from a re-analysis of the deposited data

How the results depend on the processing

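Levels depended on the quantification and its scale. The median over the 8 genes, 111 TPM, was 64.5 TPM in the second quantification, 391 TPM when TPM was rescaled over protein-coding genes and 51.4 TPM over protein-coding transcripts alone, an alternative chosen after seeing the data. The sum, 1062 TPM, was 591, 3741 and 498 TPM under the same alternatives. With 1 library left out the median was 91.2 to 130 TPM and the sum 966 to 1158 TPM. The share outside protein-coding transcripts, 53.2%, was 60.3% in the second quantification, 32.1% in expected counts and 28.6% without Oasl2, and 52.2% to 54.2% with 1 library left out. The cause of the difference between the quantifications was not tested. Counts of members at 1 or 10 TPM moved by at most 1, and no member passed a log2 ratio of 1 under DESeq2 size factors, library totals, the second quantification or other count minimums. The log2 ratios of all 8 were below 0 under TMM, DESeq2 size factors, library totals and the centred second quantification, but under library totals Oasl2 and Oas3 were both at -0.01, about level. In the second quantification's own TPM, Oasl2, Oas2 and Oas3 were higher in replicate 2. No paired analysis was possible because there is only 1 group. With 2 libraries an SD has 1 degree of freedom, and depth limits Oas1c most among the members.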
